A study of Rattus norvegicus with 2 samples.

Results

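The transcription factors described here pattern the embryonic forebrain or drive its precursors to become neurons. The set was defined by name as 9 genes, Pax6, Lhx2, Emx2, Neurod1, Neurog2, Dlx2, Dlx5, Prox1 and Tbr1, and a probe was taken for a member when its RefSeq mRNA accession in the scanner files belonged to that gene. In this way 6 of the 9 genes had a probe on both arrays, Pax6, Lhx2, Emx2, Dlx5, Neurod1 and Prox1, each with 1 probe printed as 1 spot. Neurog2, Dlx2 and Tbr1 had no probe matched through an accession and have no value below. The 6 genes stand among 10022 genes that were measured, a gene counting as measured when the scanner software called most spots of a probe well above background on both arrays. All 6 met that condition.

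The RNA came from neural stem cells of the hippocampus of Sprague-Dawley rats at postnatal day 3, grown in serum-free medium with the growth factor bFGF and used in passage 3. The sevoflurane sample had spent 6 h under 2.4% sevoflurane, an inhaled anaesthetic, and the control sample 6 h under 0% sevoflurane. The labels give 5% CO2 for both samples. Both were then returned to an ordinary incubator for 24 h, although other labels name only the 6 h time. Each group is 1 array, so there are 2 arrays in all, no spread between cultures is known, and differences are described by size without a p-value.

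In the embryonic forebrain, as worked out mainly in the mouse, homeodomain factors divide the early neural tube into a dorsal part, which forms cortex and hippocampus, and a ventral part, which forms the basal ganglia and most inhibitory interneurons. Pax6, Lhx2 and Emx2 are expressed in dividing dorsal precursors, and Dlx genes in ventral ones. Basic helix-loop-helix factors such as Neurog2 and Neurod1 bind the E-box sequence of their target genes and lead precursors out of the cell cycle into neuronal differentiation, a route that granule neurons of the dentate gyrus still follow after birth.

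The scan days of the arrays differed, and effects of the day and of the gas cannot be told apart. The upper quartile of the probe signals stood at 359 for the sevoflurane array and at 692 for the control array, and the lower quartile at 16.4 for the sevoflurane array and 3.97 for the control array. Levels below are processed signals in the scanner's linear units or log2 signals relative to the upper quartile of the array, and differences are sevoflurane minus control in log2 units of the scaled signal, where 1 unit is 2-fold. The median difference over all measured genes was 0.27, so a gene at 0 lay below most others. It was -0.10 after quantile normalization, 0.00 after an intensity-dependent correction and -0.83 after scaling to the median. At a limit of 2-fold or more, 2822 measured genes counted as higher and 1123 as lower, against 1367 higher and 1967 lower after quantile normalization. Of 15 listed neural stem cell markers, 11 had a probe and all 11 were measured. Sox2 read 1993 under sevoflurane and 6835 in the control, and the filament gene Vim 26446 under sevoflurane and 26814 in the control. These 2 markers were picked after their values were seen. All probed markers of astrocytes (8), the oligodendrocyte lineage (9) and red cells (6) were measured as well. Being measured therefore does not tell cell types apart and is no check of the labelled one.

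Promoter sequence was at hand for 3 of the 6 measured factors, Lhx2, Neurod1 and Pax6. It is shown because these genes were lower together and because E-boxes and TAATTA are sequences that some factors of this set recognise. The 250 bases before the annotated start are printed 5′ to 3′ on the gene's strand, from RefSeq on build GRCr8. Capitals mark E-boxes (CANNTG, the same on both strands), TATA boxes (TATAAA or TATATA on the gene's strand) and GC boxes (GGGCGG or CCGCCC).
Lhx2, chr3:42535494-42535743, plus strand: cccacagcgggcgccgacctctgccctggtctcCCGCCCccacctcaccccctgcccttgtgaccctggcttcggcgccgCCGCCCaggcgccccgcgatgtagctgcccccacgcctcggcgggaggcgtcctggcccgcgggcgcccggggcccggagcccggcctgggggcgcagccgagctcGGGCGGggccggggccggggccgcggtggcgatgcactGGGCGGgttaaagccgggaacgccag
Neurod1, chr3:84770455-84770704, minus strand: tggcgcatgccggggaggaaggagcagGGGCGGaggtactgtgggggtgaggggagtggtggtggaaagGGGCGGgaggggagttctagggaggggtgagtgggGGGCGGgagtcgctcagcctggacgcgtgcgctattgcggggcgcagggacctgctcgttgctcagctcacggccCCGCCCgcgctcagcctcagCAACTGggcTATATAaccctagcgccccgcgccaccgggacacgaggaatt
Pax6, chr3:112590346-112590595, plus strand: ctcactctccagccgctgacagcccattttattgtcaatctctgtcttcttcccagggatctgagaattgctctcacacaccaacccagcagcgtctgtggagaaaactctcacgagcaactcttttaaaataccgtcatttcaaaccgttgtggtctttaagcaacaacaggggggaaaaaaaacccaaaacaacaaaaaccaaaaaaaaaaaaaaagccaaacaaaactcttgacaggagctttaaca

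The Lhx2 window held 80.8% G and C with 33 CpG, and the Neurod1 window 69.2% with 21 CpG. The Pax6 window held 42.0% with 5 CpG, against medians of 51.2% and 5 over the windows of 33469 promoters. Lhx2 and Neurod1 each had 4 GC boxes, which 30.5% of all windows hold at least once. Neurod1 alone of the 3 had an E-box, 51 bases before the start, and a TATA box, 42 bases before it. An E-box is found in 65.5% of windows and such a TATA box in 12.0%. TAATTA, the core that many homeodomain proteins prefer and that 4.86% of windows hold, was in none of the 3. The 3 genes thus share no motif of those searched that is present in all of them, and the search says nothing of more distant elements.

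Pax6, a paired-domain and homeodomain factor of radial glia and neural precursors, had a signal of 1163 under sevoflurane and 4456 in the control. On the scaled level it lay at 1.69 in the sevoflurane sample and at 2.69 in the control sample, a difference of -0.99, or 50.3% of the control level. Its signal ranked at percentile 88.2 of all 24629 usable probes under sevoflurane and at percentile 93.7 in the control. Such ranks are the same whatever constant is taken off an array. Whether fewer cells held a transcript or each cell held less of it cannot be told apart in bulk RNA, for this gene and all that follow.

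Lhx2, a LIM-homeodomain factor without which the mouse forms neither neocortex nor hippocampus, read 1230 under sevoflurane and 4877 in the control. Its difference was -1.04, or 48.6% of the control level, and its rank was at percentile 88.7 under sevoflurane and 94.2 in the control. Its difference lay within the scanner error of that of Pax6.

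Emx2, the homeodomain factor that the mouse needs for growth of the dentate gyrus, differed less. It read 846 under sevoflurane and 2526 in the control, a difference of -0.63, or 64.5% of the control level. Its rank was at percentile 84.8 under sevoflurane and 88.6 in the control, the smallest shift in rank of the 6 genes. Of the 3 dorsal patterning factors, all were lower in the sevoflurane sample, with Emx2 within 2-fold and Pax6 and Lhx2 close to that limit.

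Dlx5, a Distal-less homeodomain factor of ventral forebrain precursors and young inhibitory interneurons, had the lowest difference of the 6. It read 371 under sevoflurane and 2267 in the control. The difference was -1.66, or 31.5% of the control level, and the rank was at percentile 75.4 under sevoflurane and 87.6 in the control. Only 4.39% of all measured genes had a difference lower than that of Dlx5. The gene table also lists the symbol Dlx5 as an older name of Dlx2, so the probe was assigned by accession and not by symbol.

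Neurod1, the basic helix-loop-helix factor that drives the maturation of granule neurons, read 461 under sevoflurane and 1974 in the control. The difference was -1.15, or 45.0% of the control level, with ranks at percentile 77.9 under sevoflurane and 86.2 in the control. Prox1, the homeodomain factor that sets the identity of granule neurons of the dentate gyrus, was the one dim probe of the set. It read 45.6 under sevoflurane and 107 in the control, with uncorrected spot brightness of 97.0 over a local background of 21.0 under sevoflurane, and of 155 over 27.0 in the control. Its difference was -0.28, and its rank was at percentile 48.1 under sevoflurane and 58.0 in the control.

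**Figure D1:**
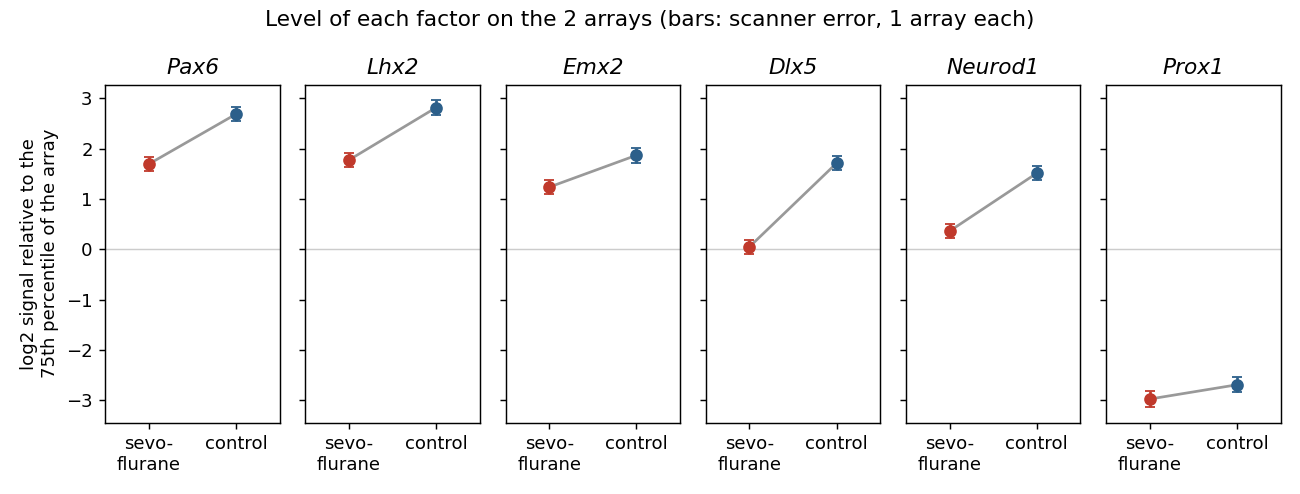
Log2 signal of each of the 6 factors relative to the 75th percentile of its array, for sevoflurane (left, red) and control (right, blue), with 1 array per group and bars for the scanner's own error of the spot. All 6 points are lower under sevoflurane, with differences of -1.66 for Dlx5 at the one end and -0.28 for Prox1, which is at 0.10 after normexp, at the other.

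The only errors at hand are technical. The scanner's own error of a difference was 0.20 for the 5 bright factors and 0.22 for Prox1. Where other probes were printed as 3 or more spots, single-spot differences had a median SD of 0.084 and a 95th percentile of 0.18 among the 811 probes at least as bright as the dimmest of the 5. Among 618 probes near the level of Prox1 the median SD was 0.14 and the 95th percentile 0.30. The differences of Dlx5, Neurod1, Lhx2, Pax6 and Emx2 were thus larger in size than the 95th percentile of these SDs, whereas that of Prox1 was not. Such percentiles, here and below, rank SDs and are not a range for a single difference. Between different probes of the same gene the spread was wider at its upper end. Over 236 genes the SD of such differences had a median of 0.11 and a 95th percentile of 1.60. Each factor has 1 probe, so this spread is not known for it, and only Dlx5 differed by more than that 95th percentile. In the order of the differences, Dlx5 lay 0.51 below Neurod1, against a combined scanner error of 0.29. Neurod1, Lhx2 and Pax6 lay within 0.11 and 0.05 of their neighbours, which is inside that error and gives them no order. Emx2 lay 0.36 above Pax6 and 0.35 below Prox1, slightly more than the error. How separate cultures would vary is not known from these arrays.

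As a set, 3 of the 6 measured factors were at least 2-fold lower (Dlx5, Neurod1 and Lhx2) and 0 were higher, with a median of -1.02. Over all measured genes, 11.2% were lower and 28.2% higher by that rule, and the median was 0.27. All 6 factors lay below 0, Prox1 not so after the normexp background correction, as did 40.4% of all measured genes. Pax6, at -0.99, missed the limit by less than its scanner error, and Lhx2 and Neurod1 passed it by less than theirs, so only Dlx5 was clear of the limit on the lower side. With the percentile taken over each array's own probes the count was 4, with Pax6 at -1.01, beside 11.5% of all measured genes.

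The difference depended on signal level over the whole array, so each factor was also set against genes of like level, in 10 equal groups. Dlx5 and Neurod1 fell in group 7, whose median was -0.14. Emx2 fell in group 8 (median -0.13), Lhx2 and Pax6 in group 9 (median -0.14), and Prox1 in group 3 (median 0.63). Against those medians Dlx5 lay 1.52 lower, Neurod1 1.01, Prox1 0.91, Lhx2 0.90, Pax6 0.85 and Emx2 0.51. Of the genes in its own group, 7.49% had a lower difference than Dlx5, 10.9% than Lhx2, 12.4% than Pax6, 13.8% than Neurod1, 22.4% than Prox1 and 26.4% than Emx2. In log2 units Prox1 therefore stood about as far below the median of its own group as Lhx2 and Pax6 did, although its difference as such was small. By the share of its group with a lower difference, 22.4%, Prox1 was nearer to Emx2 than to Lhx2 and Pax6.

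**Figure D2:**
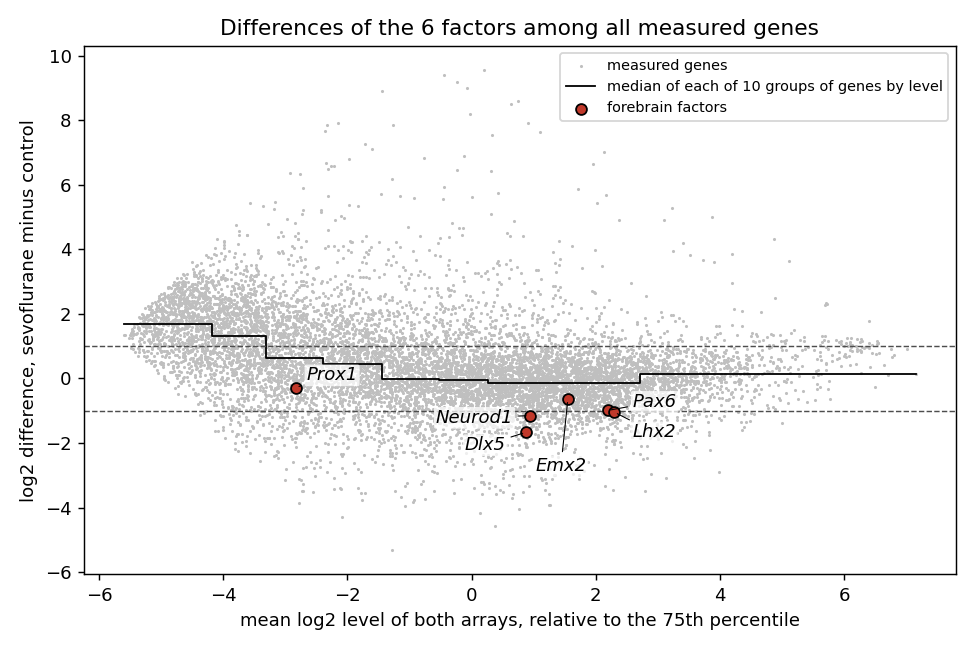
Difference (sevoflurane minus control, log2) of each measured gene in grey and of the 6 factors in red, against mean log2 level relative to the 75th percentile of the array; the black line is the median of each of 10 equal groups of genes by level and dashed lines mark 2-fold. In this scaling all 6 factors lie below the black line, Dlx5 by 1.52 and Emx2 by 0.51.

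Among the factors, Dlx5 was lower by at least 2-fold under every scaling tried, between -1.49 after the intensity-dependent correction and -2.76 after scaling to the median. Neurod1 lay at -0.98 after the intensity-dependent correction and at -1.09 after quantile normalization and in the authors' deposited values. Lhx2 lay at -0.92, -0.98 and -0.98 under those 3 settings, and Pax6 at -0.86, -0.93 and -0.94, all just within 2-fold. Emx2 lay at -0.46, -0.54 and -0.54. Prox1 depended most on the scaling: it lay at -1.07 after the intensity-dependent correction, at -1.24 after quantile normalization and in the deposited values, but at 0.10 after the normexp background correction. In the deposited values, which are on a log2 scale, Prox1 stood at 5.38 under sevoflurane and 6.62 in the control, and Dlx5 at 9.01 under sevoflurane and 10.6 in the control. The count of factors lower by at least 2-fold was 3 after quantile normalization and in the deposited values, beside 19.6% and 19.2% of all measured genes. In both, the 3 were Dlx5, Neurod1 and Prox1, so Prox1 took the place of Lhx2. The count was 2 (Dlx5 and Prox1) after the intensity-dependent correction, beside 15.5%, and 4 after normexp, where Pax6 lay at -1.07, beside 8.44%.

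**Figure D3:**
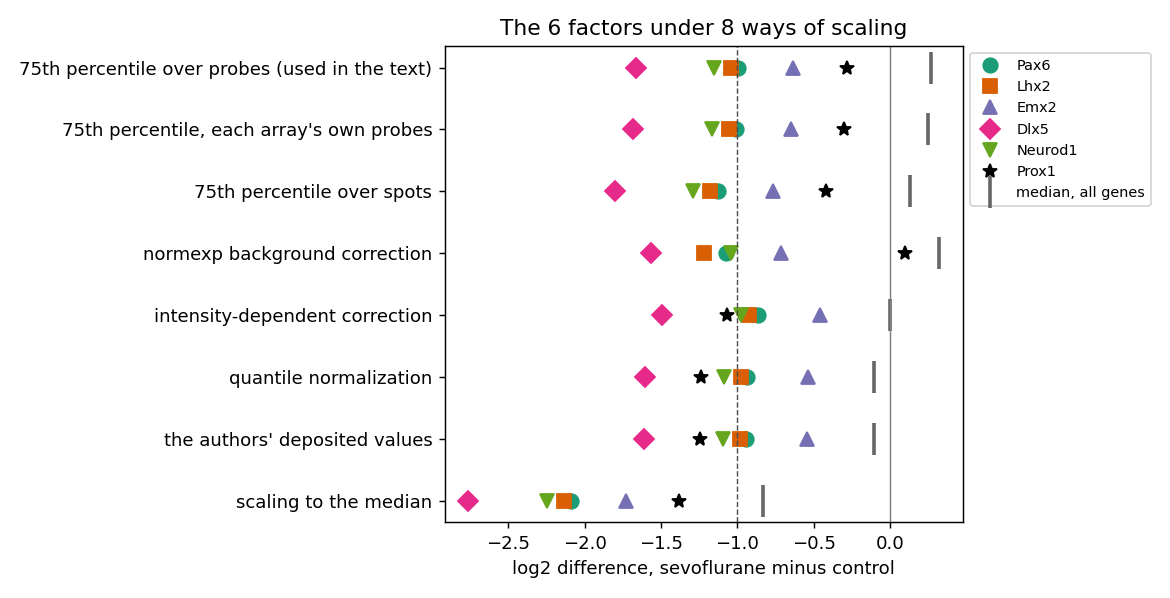
Difference (sevoflurane minus control, log2) of each of the 6 factors under 8 ways of scaling, one per row, with the median of all measured genes as a grey tick; the dashed line marks 2-fold lower. Dlx5 is left of the dashed line in every row, and Prox1 moves from 0.10 after normexp to -1.38 after scaling to the median, where the median of all genes lies at -0.83.

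Other transcription factors of the forebrain lay on both sides of 0, with more below it than above. Over 3 lists of 85 further transcription factors, 56 were measured, and their median was -0.42, beside 0.27 over all measured genes. Of these 56, 20 (35.7%) reached 2-fold lower and 9 (16.1%) reached 2-fold higher. Over all measured genes the shares were 11.2% lower and 28.2% higher. These lists, like the set itself, were drawn up with earlier results of these data known. Among 17 measured patterning factors 5 were lower and 2 higher, with a median of -0.34; after quantile normalization 8 were lower and 1 higher, with a median of -0.83, and with no filter on dim probes the median was -0.057. The POU factor gene Pou3f3 differed by -1.59. Otx1, another homeodomain factor, was higher by 2.12, from a dim probe (71.9 under sevoflurane, 31.8 in the control), and by 1.07 after the intensity-dependent correction.

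Among 16 measured ventral and interneuron factors 7 were lower and 4 higher, with a median of -0.54. Over all measured genes 11.2% were lower and 28.2% higher. The median was -1.21 after quantile normalization and in the deposited values, -1.02 after the intensity-dependent correction and -0.19 after normexp, where 3 were lower and 4 higher. Dlx1, which lies beside the unmatched Dlx2 in the genome, read 351 under sevoflurane and 2379 in the control, a difference of -1.82 beside the -1.66 of Dlx5. Among the higher ones were Gsx2, a homeodomain factor of ventral precursors (2.19), and Nkx6-2 (1.84). After quantile normalization Gsx2 stood at 1.39 and Nkx6-2 at 0.94. Dlx3, named after its values were seen because it belongs to the Distal-less family, was higher by 1.40. The 3 Dlx genes with a value here, Dlx1, Dlx3 and Dlx5, thus did not all lie on one side. Whether Dlx3 acts in these cells was not tested.

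Among 23 measured neurogenic and neuronal factors 8 were lower and 3 higher, beside 11.2% and 28.2% of all measured genes, with a median of -0.66. Neurod6 and Neurod2, which follow Neurod1 in excitatory neurons, had lower differences than it: Neurod6 read 500 under sevoflurane and 9750 in the control, a difference of -3.34, and Neurod2 read 1327 under sevoflurane and 12799 in the control, a difference of -2.32. Neurod4, named after its values were seen because it belongs to the same family, was at 0.45, from a dim probe, and at -0.13 after the intensity-dependent correction. Bhlhe22, a related factor of cortical and hippocampal neurons, differed by -2.47, and Myt1l, a zinc finger factor that holds neurons in their identity, by -3.57. Neurog3, which is better known from the pancreas, was higher by 3.00, with a signal of 55.5 under sevoflurane and only 13.4 in the control, and by 1.44 after normexp. Whether any of these genes differs from the 6 factors beyond the spread between cultures was not tested, since 1 array per group allows no such test.

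**Figure D4:**
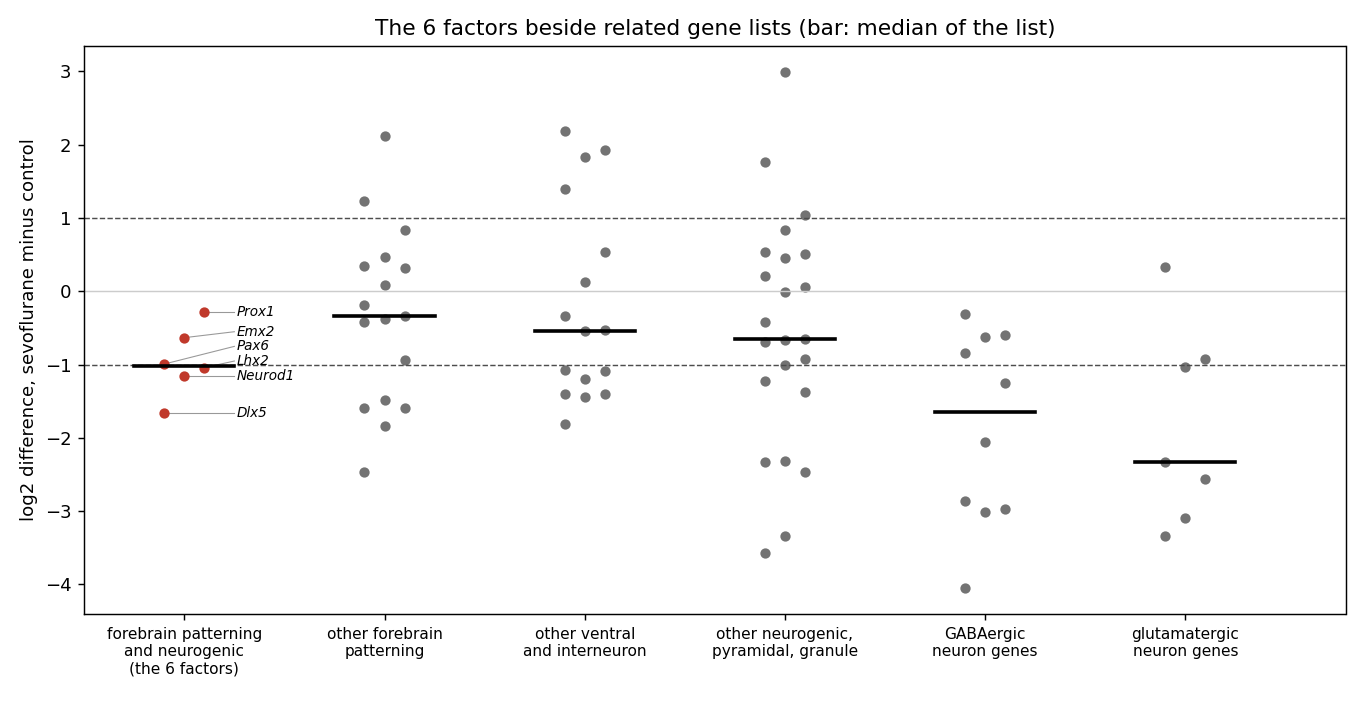
Difference (sevoflurane minus control, log2) of the 6 factors (red, left) and of the measured genes of 5 related lists (grey); black bars are medians of the lists, dashed lines mark 2-fold, and only the 6 factors are labelled. The 6 factors span -1.66 to -0.28, whereas the other neurogenic factors span -3.57 to 3.00.

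Genes that act in inhibitory and excitatory neurons were also read, beside 11.2% lower and 28.2% higher over all measured genes. Of 10 measured genes of inhibitory, GABAergic neurons 6 were at least 2-fold lower and 0 higher, and the median was -1.65, or -0.85 with no filter on dim probes or with a signal floor of 10. Pvalb, a calcium-binding protein gene of interneurons, was well above background only under sevoflurane (39.7 under sevoflurane, 5.28 in the control). Slc32a1, which loads GABA into vesicles, differed by -3.02. Gad1, a GABA-synthesising enzyme gene known in the mouse as a target of Dlx factors, differed by -2.98, and the extracellular matrix gene Reln by -2.86. Of 7 measured genes of excitatory, glutamatergic neurons 5 were lower and 0 higher, with a median of -2.32. That median was -0.83 after normexp, where 3 were lower, and -0.98 with no filter on dim probes. The 5 include Neurod6 and Neurod2, already counted above, and the vesicular transporter gene Slc17a6 at -3.10. Gria2, a glutamate receptor gene, was at -2.57 from a dim probe and at -0.75 after normexp. The glutamate receptor gene Grin1 was at 0.33, and at -1.10 after quantile normalization, and the kinase gene Camk2a was well above background only under sevoflurane (15.5 under sevoflurane, 6.06 in the control). Pvalb, Grin1 and Camk2a were named after their values were seen.

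Markers of several cell types were read beside the 6 factors, and their part in the result was not tested. Over all measured genes, 11.2% were at least 2-fold lower and 28.2% higher, or 19.6% and 13.6% after quantile normalization. The counts of higher stem cell, astrocyte and oligodendrocyte markers below lie near the 28.2% and do not set these markers apart from other genes. Summed signals are given after bringing the upper quartile of the sevoflurane array to that of the control array. General neuron markers summed to 44767 under sevoflurane and 99601 in the control, with 5 of 12 measured markers lower and 1 higher (Mapt at -3.09 and Ina at 1.99 were farthest from 0, Ina from a dim probe that stood at 0.89 after quantile normalization, where 8 were lower and 0 higher), and microglia markers to 2487 under sevoflurane and 12299 in the control, with 7 of 9 lower and 0 higher (Ctss -3.54, C1qa -3.45). Cx3cr1 and Itgam, both microglial, were not well above background on either array, and Syt1, a synaptic marker, was so only in the control. Neural stem cell markers summed to 69935 under sevoflurane and 52982 in the control, with 1 of 11 lower (Slc1a3, at -1.71) and 3 higher. The direction of that sum rests on Vim, since the other 10 summed to 18986 under sevoflurane and 26168 in the control. The median of all 11, 0.12, turned negative after quantile normalization, at -0.40. Astrocyte markers had 2 of 8 lower (Apoe -2.69, Sparcl1 -1.87) and 2 higher, against 4 lower and 0 higher after quantile normalization, and summed to 8976 under sevoflurane and 11365 in the control. Oligodendrocyte lineage markers had 1 of 9 lower and 3 higher (Gpr17 2.41, from a dim probe that stood at 0.69 after quantile normalization, and Cspg4 2.39), and summed to 4734 under sevoflurane and 4681 in the control; their median was 0.84 but -0.23 after quantile normalization. Mesenchymal and vascular markers had 4 of 7 higher (Rgs5 3.39 and Cldn5 2.65, dim probes that stood at 1.74 and 1.48 after quantile normalization) and 0 lower, and summed to 45686 under sevoflurane and 34662 in the control. All 6 measured red cell markers were higher (Ahsp 4.36, Slc4a1 3.56), and summed to 98573 under sevoflurane and 17737 in the control.

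The genes next to the 6 factors on the chromosome were also read. Of the 24 protein-coding genes nearest to them, taken as the pair on each side in the gene table of build GRCr8, 10 were measured. Of these 10, 0 were at least 2-fold lower and 2 were higher, beside 11.2% lower and 28.2% higher over all measured genes. Such counts among 10 genes do not set the neighbours apart from other genes. Their median was 0.56, beside 0.27 over all measured genes. Slc18a2, near Emx2, was the one below 0, at -0.40 and at -1.44 after the intensity-dependent correction. That correction also put Pdzd8, next to Emx2, at -0.73, against 0.79 without it. Elp4, the neighbour of Pax6 that houses some of its enhancers in the mouse, was at 0.17 (425 under sevoflurane, 727 in the control). Sem1, beyond Dlx6 from Dlx5, was at 0.83, and Psmb7, near Lhx2, at 0.57. The 2 higher neighbours were Rab11fip2, next to Emx2, at 2.29, and Itga4, near Neurod1, at 1.20, both from dim probes that stood at 0.69 and 0.25 after the intensity-dependent correction. These neighbours were chosen after the members' values were seen.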

How the data were processed

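Stem cell RNA was labelled with Cy3 by random priming without bias to the 3′ end, per the labels' protocols, and hybridised to 1-colour arrays, 1 for sevoflurane and 1 for the control. Per the file headers, the deposited scanner files give linear spot intensity, written by Agilent Feature Extraction 11.0.1.1, with background already corrected and no scaling between arrays. The deposited value table holds log2 intensities normalized by the authors in a way not given in the sources used here. Its columns correlated at 0.991 (sevoflurane) and 0.993 (control) with log2 of the scanner signals over 24431 probes, and their medians were 5.61 (sevoflurane) and 5.60 (control), so it was read as log2 signal brought to a like level.

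Control spots and spots flagged as outliers (521 of 42136 on the sevoflurane array, 580 on the control array) were left out. Log2 processed signals were averaged over the spots of each probe, and the 75th percentile over the 24629 probes usable on both arrays was subtracted. No spot was saturated. RefSeq accessions without versions named 14240 of 15293 mRNA probes. Where a gene had several measured probes, the one brightest on average stands for it. The members and gene lists were chosen with earlier results of these data known. The naming rule takes all members, up to 4 genes with the highest absolute difference from each related list and up to 2 from each marker list; some genes it takes are not reported here, though the counts, medians and sums of the lists include them. With 2 arrays a gene's pattern is a single difference, so no gene was named for likeness to a member. The number of arrays limits the precision, and no p-value is given.

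Alternatives were scaling to the median, quantile normalization, an intensity-dependent correction (lowess, span 0.3), normexp with an offset of 50, the deposited values, flagged spots kept, the mean over the probes of a gene, no filter on dim probes and a signal floor of 10. The files hold no mean spot signal, so normexp used the median spot signal. A percentile over each array's own probes or over spots was added after seeing the data. Scaling and correction were run on simulated data with as many raised as lowered probes, so that run does not check the scaling for these arrays. Python 3.11.15, pandas 2.3.3, statsmodels 0.14.6 and limma 3.58.1 in R 4.3.3 were used.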

Additional observations from a re-analysis of the deposited data

Results flagged for a closer look

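The E1A control spots, which serve as a check of labelling and are used in no comparison above, had a median signal of 13.2 under sevoflurane and 1.91 in the control. Of 320 such spots on each array, 172 under sevoflurane and 5 in the control were well above background. Of the 10 E1A probes, 1 was bright on the sevoflurane array, with a median of 1187 over its 32 spots under sevoflurane and 4.18 in the control. The other 9 had medians between 2.42 and 24.4 under sevoflurane and between 1.80 and 6.36 in the control. Most spots were well above background for 5 of the 10 probes under sevoflurane and 0 in the control. The spots differ between the arrays, and their part in the differences of the forebrain factors was not tested.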

How the results depend on the processing

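The direction of Dlx5, Neurod1, Lhx2, Pax6 and Emx2 was the same in all 11 alternatives, and that of Prox1 in all but normexp. The median of the 6 factors stayed between -0.95 and -1.15 except after scaling to the median, at -2.11. There 6 were lower by at least 2-fold, beside 43.5% of all measured genes. That scaling moves all genes alike. It also put the patterning, ventral and neurogenic lists at -1.44, -1.63 and -1.75, GABAergic and glutamatergic genes at -2.75 and -3.42, and the markers of neurons, stem cells, astrocytes, oligodendrocytes, microglia, vessels and mesenchyme, and red cells at -1.84, -0.97, -1.10, -0.25, -3.16, 0.32 and 2.32. After quantile normalization the patterning, ventral and GABAergic lists had medians of -0.83, -1.21 and -2.02, and the markers of neurons, stem cells, astrocytes, oligodendrocytes, microglia and mesenchyme -1.47, -0.40, -0.81, -0.23, -2.76 and 0.72. The deposited values gave -0.84, -1.21, -2.02, -1.47, -0.40, -0.82, -0.24, -2.77 and 0.71 for the same 9 lists. The intensity-dependent correction gave -0.76 and -1.02 for patterning and ventral factors, and -1.28, -0.31, -0.59, -0.15, -2.50 and 0.90 for the same 6 marker lists. Normexp gave -0.19 for ventral factors, -1.21 and -0.83 for GABAergic and glutamatergic genes, -1.23 for microglia and 3.16 for red cells. With no filter on dim probes, which counts more genes, patterning factors were at -0.057, GABAergic and glutamatergic genes at -0.85 and -0.98, and mesenchyme at 2.01; with a signal floor of 10 these 4 were at -0.057, -0.85, -0.98 and 1.02. For the other changes the cause was not tested. A value counted as moved when it shifted by more than the scanner error of 0.20. No paired analysis was possible because each group has 1 array. Dim probes such as that of Prox1 limit what can be read, since normexp turned its sign.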
